A study of Haplochromis burtoni and Lepidiolamprologus elongatus and Tropheus moorii with 25 samples.

Results

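Nuclear receptor genes were described in single-cell RNA sequencing of the intestine of 25 African cichlid species. The members are all features whose symbol follows the naming of the nuclear receptor families or of their coactivators and corepressors (nr0 to nr6, ppar, rxr, rar, ror, esr and esrr, thr, ar, pgr, ncoa and ncor). The rule took 43 of 42622 features. By symbol, 32 were receptors and 9 were coregulators, such as ncoa4, ncor1 and ppargc1a. The other 2, thrap3 and nr2c2ap, share the letters but are not receptors: thrap3 is an RNA-processing factor, and nr2c2ap encodes a protein that binds the orphan receptor NR2C2. Receptors such as vdr, nr1i2, nr1d2, rorc, thra, rarb and nr4a1 had no matching symbol and were not analysed here. The rule uses symbols and no measured value, but it was chosen with earlier results of these data known.

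Nuclear receptors are transcription factors that bind small fat-soluble molecules such as bile acids, fatty acids, sterols, retinoic acid, steroid hormones and thyroid hormone. Many act as pairs with a retinoid X receptor, and they recruit coactivators or corepressors to switch target genes on or off. In the intestine of vertebrates they are known for sensing absorbed lipids and bile acids, for hormone control of salt transport, and for roles in the circadian clock and in immune cells.

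Each library came from dissociated intestine of a single species: Bathybates ferox, Benthochromis horii, Boulengerochromis microlepis, Callochromis pleurospilus, Cyphotilapia frontosa, Cyprichromis coloratus, Eretmodus cyanostictus, Haplochromis burtoni, Haplotaxodon microlepis, Julidochromis ornatus, Lepidiolamprologus attenuatus, Lepidiolamprologus elongatus, Limnotilapia dardennii, Neolamprologus brevis, Neolamprologus brichardi, Oreochromis niloticus, Perissodus microlepis, Petrochromis orthognathus, Shuja horei, Simochromis diagramma, Telmatochromis vittatus, Trematocara zebra, Triglachromis otostigma, Tropheus moorii and Xenotilapia spiloptera. With 1 library per species, no species was tested against another. Age, sex, diet and time of sampling are not given in the labels, and every species was counted against a single feature list. How the sequence distance of a species from the reference moved its counts was not tested.

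The libraries held 115682 deposited cell barcodes, of which 101710 had at least 500 UMIs and 250 features and were kept, between 1072 and 6928 per library. A UMI is a tag that marks 1 captured transcript. Kept barcodes held between 6927767 and 31659955 UMIs per library. Haplotaxodon microlepis and Trematocara zebra were deposited with exactly 5000 and 2000 barcodes, and the counts of called members without them are given with the processing results. Any pair of libraries shared between 0 and 17 barcode sequences, with a median of 5 over 300 pairs.

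Barcodes were sorted by 5 marker genes, each taken as positive with at least 1 UMI, and a barcode positive for several was left out. The marker mogat2 encodes an enzyme of fat absorption in enterocytes, and cubn encodes cubilin, a receptor for protein uptake in lysosome-rich enterocytes. The ion channel gene best4 marks BEST4 epithelial cells, the kinase gene lck marks T cells and related lymphocytes, and the receptor gene csf1r marks macrophages. The sets held 14179 mogat2-positive, 2401 cubn-positive, 1175 best4-positive, 12954 lck-positive and 4145 csf1r-positive barcodes, and 64230 kept barcodes had none of the 5 markers. Summed profiles of at least 20 barcodes were available from 25, 19, 21, 25 and 24 libraries in that order. Median UMIs per barcode differed between the sets, with a middle library at 6013 for mogat2, 2504 for cubn, 3135 for best4, 2256 for lck and 3704 for csf1r.

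Each set was also read by other markers. Summed levels of 5 enterocyte markers had a median of 20520 counts per 1000000 UMIs (CPM) in mogat2-positive profiles and between 376 and 1625 CPM in the other sets. T or NK markers (5 features) reached a median of 922 CPM in lck-positive profiles, against 27.8 to 154 CPM elsewhere. Macrophage markers (4 features) reached 23230 CPM in csf1r-positive profiles, against 746 to 1990 CPM elsewhere. The macrophage sum rests on cd74, at a pooled 24130 CPM in csf1r-positive barcodes and 644 to 2153 CPM in the other sets. Pooled levels of marco, spi1 and mafb were 205.5, 325.7 and 927.7 CPM in csf1r-positive barcodes, against 0.147 to 24.2 CPM in the other sets. BEST4 and CFTR cell markers (2 features) stood at 2015 CPM in best4-positive profiles and at 9.58 to 48.1 CPM elsewhere. That sum rests on the chloride channel gene cftr, since hes4 had a pooled level of 11.1 CPM in best4-positive barcodes, against 61.0 CPM in lck-positive and 42.7 CPM in csf1r-positive barcodes. By the edgeR test and threshold given with the members' levels, hes4 was called higher in both immune sets but not in the best4 set. Lysosome-rich markers (4 features) were at 6981 CPM in cubn-positive profiles, but also at 2853 CPM in csf1r-positive profiles. Shared by both sets were lgmn (pooled 8777 CPM in cubn-positive and 2440 in csf1r-positive barcodes) and dab2 (860 and 463). In the same order amn stood at 273 and 0.32 CPM, so it was not shared, and lrp2 was low in both (1.21 and 1.02). Fibroblast markers (4 features) were highest in the immune sets, with medians of 19.2 CPM in lck-positive and 37.5 CPM in csf1r-positive profiles, against 1.59 to 4.26 CPM in the epithelial sets. Markers of enteroendocrine cells were called higher in best4-positive (3 of 3 tested, summed median 149 CPM) and mogat2-positive profiles (2 of 3, summed median 93.0 CPM), and the goblet marker agr2 was called higher in the best4 set (log2 fold change 2.61). All 3 cycling markers were called higher in lck-positive profiles, with a summed median of 236 CPM, against 26.8 to 64.4 CPM elsewhere. The B-cell gene cd79a was called higher in the lck set (1.56), and lcp1, listed for granulocytes, in the lck (3.46) and csf1r sets (3.81). The part of these other cell types in the results below was not tested.

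Levels of members in the sets are given as scaled CPM, that is CPM divided by a normalization factor per profile, so that levels and fold changes share a scale. These are tags at transcript ends, 1 per captured transcript, and are not divided by gene length. Each set was compared with the other 4 by edgeR's quasi-likelihood test, with the library as a block. A feature was called at a Benjamini-Hochberg adjusted p under 0.05 over all 11256 features tested and a change of at least 2-fold, and calls were also read under 10 other settings of filter, scaling, model and barcode choice and with each library left out in turn. The fold change is taken against the geometric average of the other 4 sets. Each library is a different species, so p-values measure how regular a difference was across species. Enough UMIs for the test were found for 30 of the 43 members, of which 19 were receptors.

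Among those 30 members, 7 were called higher and 2 lower in mogat2-positive barcodes, where 19.1% of all features were called higher and 14.8% lower. In cubn-positive barcodes 5 were called higher and 3 lower, against a background of 14.7% and 12.3%. In best4-positive barcodes 1 was called higher and 5 lower (background 10.5% and 10.6%). In lck-positive barcodes 6 were called higher and 6 lower (background 21.0% and 24.5%). In csf1r-positive barcodes 5 were called higher and 7 lower (background 17.4% and 20.5%). As shares of 30, most of these counts lay near the background, so the counts are not a result about nuclear receptors as a family. The median log2 fold change over the 30 was 0.03 in mogat2-positive barcodes, against -0.02 over all features, and 0.35 in lck-positive barcodes, against 0.14 over all features. The balance of calls over all features depended on the normalization factors. With them 56.4% of calls were higher in mogat2-positive, 54.5% in cubn-positive, 49.9% in best4-positive and 46.1% in lck-positive barcodes, and without them 36.2%, 68.2%, 72.4% and 34.9%. What the data show is which receptor was found in which set.

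**Figure D1:**
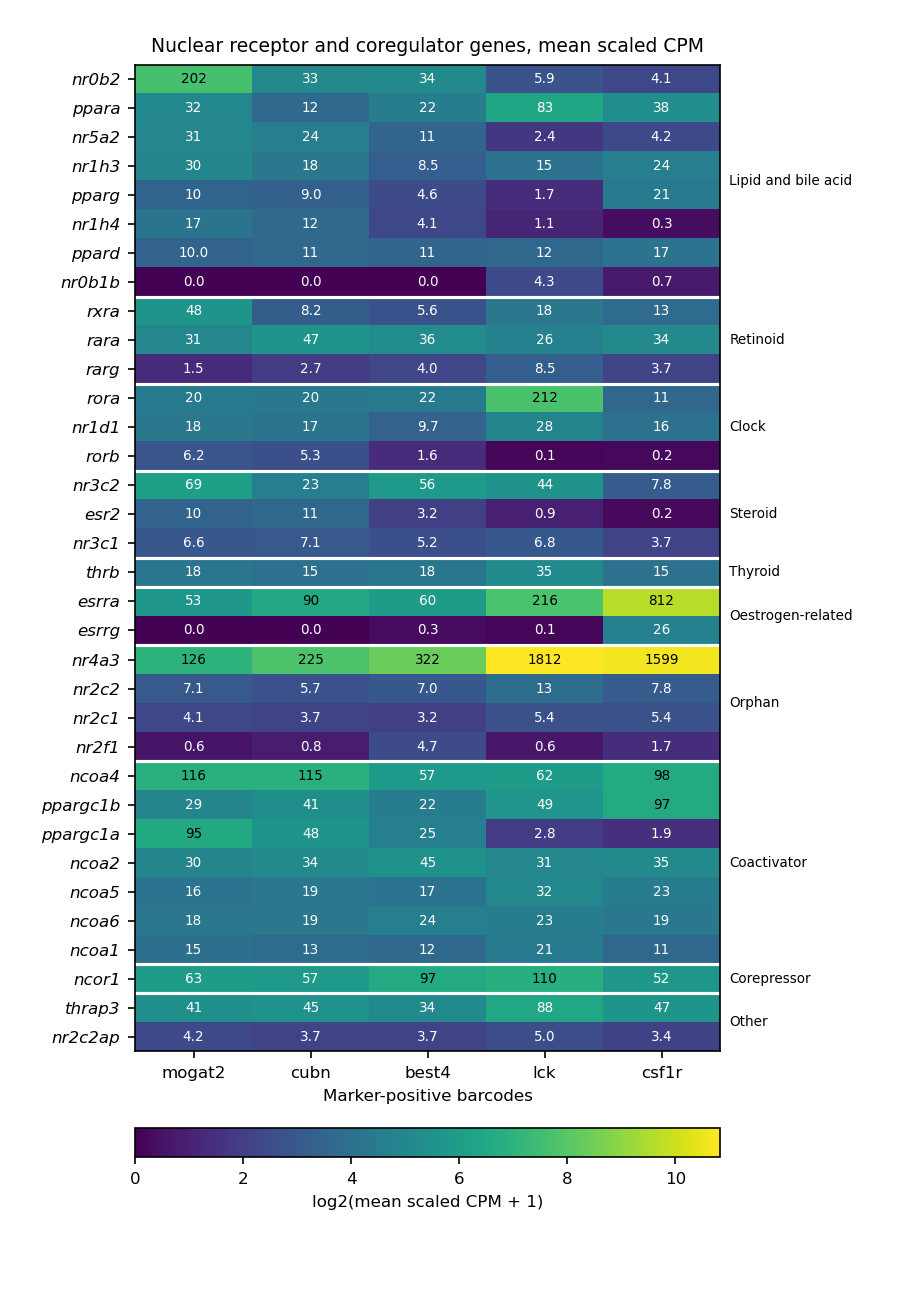
Mean scaled CPM over libraries (numbers in the cells) for 34 members that averaged at least 1 scaled CPM in any of the 5 marker-positive sets, grouped by role. Colour is log2(mean scaled CPM + 1). The row of nr4a3 is the brightest, with 1812 in lck-positive and 1599 in csf1r-positive barcodes. Each of nr0b2 and rora stands out in a single column, and esrra is highest in csf1r-positive (812) and next in lck-positive barcodes (216).

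The bile acid receptors were highest in the absorptive epithelium. The gene nr0b2 encodes SHP, an atypical receptor without a DNA-binding domain that represses other receptors and is known in mammals as a target of the bile acid receptor FXR. Its level in mogat2-positive barcodes was 7.95 scaled CPM in the lowest library, 76.2 in the median and 933 in the highest. In the other sets the lowest, median and highest were 0, 20.3 and 120 scaled CPM for cubn, 0, 23.1 and 128 for best4, 0, 2.67 and 20.1 for lck, and 0, 1.44 and 23.9 for csf1r. The mogat2 libraries overlapped with those of every other set, yet within each library nr0b2 was higher in mogat2-positive barcodes than in the mean of the other sets in 25 of 25. The log2 fold change was 3.74 ± 0.20 (SE), with an edgeR adjusted p of 1.19e-35. In cubn-positive barcodes nr0b2 was also called higher, at 1.18 ± 0.28 (edgeR adjusted p = 0.000163) against the geometric average, which the low immune sets pull down. It was higher than the plain mean of the other sets in 8 of 19 libraries. That call was lost in 3 of 10 other settings (to 0.67) and when Bathybates ferox or Shuja horei was left out. In lck-positive and csf1r-positive barcodes nr0b2 was called lower, at -2.55 and -3.29.

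The bile acid receptor FXR itself, nr1h4, was found at lower levels. It had 3.72, 13.8 and 41.1 scaled CPM (lowest, median and highest library) in mogat2-positive barcodes and 0, 13.6 and 30.9 in cubn-positive barcodes. The medians were 3.89 in best4-positive, 0.41 in lck-positive and 0 in csf1r-positive barcodes, with 12 of 25 and 19 of 24 libraries at 0 in the last pair of sets. Both absorptive sets were called higher, with log2 fold changes of 2.93 ± 0.21 for mogat2 (edgeR adjusted p = 1.32e-27) and 2.51 ± 0.26 for cubn (edgeR adjusted p = 2.59e-16). Pooled over libraries, csf1r-positive barcodes held 6 UMIs of nr1h4, or 0.324 CPM with exact 95% Poisson limits of 0.119 and 0.705. Lck-positive barcodes held 19 UMIs of nr1h4, with at most 4 in a library. Thus nr1h4 could reach the UMIs needed for the test only through epithelial profiles, so both calls are no support beyond the levels above.

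LRH-1, encoded by nr5a2, is a lipid-binding receptor of bile acid and steroid synthesis that SHP is known to repress in mammals. It followed the same order, with medians of 31.3 scaled CPM in mogat2-positive, 18.2 in cubn-positive, 6.71 in best4-positive, 1.10 in lck-positive and 2.08 in csf1r-positive barcodes. It was called higher in mogat2-positive barcodes (log2 fold change 2.42 ± 0.21, higher in 25 of 25 libraries, edgeR adjusted p = 1.89e-20) and in cubn-positive barcodes (1.64 ± 0.26, 18 of 19 libraries, edgeR adjusted p = 1.91e-08), where the value with every marker-positive barcode was 0.99 and not called. In lck-positive barcodes nr5a2 was called lower (-2.51 ± 0.31, higher in 1 of 25 libraries, edgeR adjusted p = 2.08e-12). A single library, Callochromis pleurospilus, reached 29.6 scaled CPM in lck-positive barcodes, against 4.37 in the next.

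LXR, the oxysterol receptor encoded by nr1h3, was spread more evenly. Its medians were 25.9 scaled CPM in mogat2-positive, 18.2 in cubn-positive, 10.1 in best4-positive, 15.1 in lck-positive and 23.0 in csf1r-positive barcodes. In mogat2-positive barcodes it was higher in 25 of 25 libraries, but by a log2 fold change of 0.88 ± 0.13, under the 2-fold limit. In best4-positive barcodes it was called lower (-1.22 ± 0.19, edgeR adjusted p = 8.49e-08), a call lost in 3 of 10 other settings, where the value came as near to 0 as -0.23.

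Free RNA from broken cells gives UMIs in every droplet, so low levels in immune barcodes were set beside genes of enterocytes. Pooled lck-positive barcodes held 1.79% to 2.93% of the mogat2-positive CPM of fabp2, apoa4a, apoa4b, mttp, dgat2 and rbp2, which T cells should lack. The same ratio was 1.39% for nr0b2, 1.67% for rorb, 3.04% for ppargc1a and 3.43% for nr1h4. As pooled, the first 2 lie below that range and the last 2 just above it, and the part of free RNA in them was not tested. Pooling weighs libraries by their UMIs, so the ratios also carry the mix of libraries. Boulengerochromis microlepis, the highest library for nr0b2, held 18367588 of 156840238 mogat2-positive UMIs but 772737 of 36284281 lck-positive UMIs. With 1 library left out, the ratio ran from 1.29% to 1.66% for nr0b2 and from 0.688% to 2.09% for rorb. For nr5a2 the ratio was 12.4%, but 77 of its 111 UMIs in lck-positive barcodes came from Callochromis pleurospilus, and without that library, a step chosen after seeing the data, the ratio was 4.22%. The ratio was 10.4% for esr2, 34.5% for rxra and 76.0% for nr3c2.

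Genes that bile acid and sterol receptors are known to act on in mammals were counted as well. Of a list of 11 names of LXR and sterol export, 8 were found and 6 tested. Of these 4 were called higher and 0 lower in mogat2-positive barcodes, among them abcg5, a subunit of a sterol exporter (log2 fold change 4.68), and lpcat3, a phospholipid-remodelling enzyme (1.51). The median of this list was 2.88, against -0.02 over all features, of which 19.1% were called higher and 14.8% lower. In the cubn, best4, lck and csf1r sets 0, 1, 1 and 0 LXR-list genes were called higher, and 1, 0, 4 and 4 lower. Over all features 14.7%, 10.5%, 21.0% and 17.4% were called higher and 12.3%, 10.6%, 24.5% and 20.5% lower there. Of the bile acid list only abcb11, a bile salt pump, was tested, at a log2 fold change of 4.93 in mogat2-positive barcodes. It was called lower in the cubn (-1.97), lck (-1.08) and csf1r sets (-2.43) and was not called in the best4 set (0.55). HNF4A, a receptor of epithelial identity whose symbol lies outside the rule, had log2 fold changes of 2.79 in mogat2-positive, 2.05 in cubn-positive, 1.80 in best4-positive, -3.19 in lck-positive and -3.45 in csf1r-positive barcodes.

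The PPAR receptors, which bind fatty acids, each had their own pattern. PPAR alpha (ppara), known for fatty acid oxidation, was highest in lymphocytes. Its lowest, median and highest libraries were at 30.5, 66.2 and 218 scaled CPM in lck-positive barcodes, against 1.54, 28.4 and 79.3 in mogat2-positive, 0, 9.86 and 38.8 in cubn-positive, 0, 17.9 and 92.2 in best4-positive, and 8.15, 24.0 and 249 in csf1r-positive barcodes. The ranges overlapped, and lck-positive barcodes were higher than the mean of the other sets in 25 of 25 libraries (log2 fold change 1.86 ± 0.17, edgeR adjusted p = 3.1e-18). The highest csf1r-positive value came from Eretmodus cyanostictus, and the next library stood at 90.7. In cubn-positive barcodes ppara was called lower, at -1.59 ± 0.24 (edgeR adjusted p = 2.14e-08).

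PPAR gamma (pparg), known for lipid storage and for macrophage gene programmes, was highest in macrophages. It had 2.81, 21.3 and 40.9 scaled CPM (lowest, median and highest library) in csf1r-positive barcodes, against medians of 9.56 in mogat2-positive, 7.29 in cubn-positive, 2.24 in best4-positive and 1.33 in lck-positive barcodes. The call was higher in csf1r-positive barcodes (log2 fold change 2.0 ± 0.19, 23 of 24 libraries, edgeR adjusted p = 6.91e-18) and lower in lck-positive barcodes (-2.50 ± 0.27, edgeR adjusted p = 3.85e-15). PPAR delta (ppard) did not pass the call in any of the 7 comparisons, and its medians lay between 7.79 and 14.6 scaled CPM over the sets.

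Known PPAR targets of mammals were called higher in another set than ppara. Of a list of 24 names 15 were found and 14 tested, and 10 of these were called higher and 0 lower in mogat2-positive barcodes, with a list median of 2.13. Over all features 19.1% were called higher and 14.8% lower there. Among the 10 were the fatty acid transporter cd36 (log2 fold change 5.79) and the peroxisomal enzyme ehhadh (3.1). The 10 also include fabp2, which is one of the enterocyte markers used above to read the sets. In lck-positive barcodes, where ppara was highest, 0 of the 14 were called higher and 10 lower, with a list median of -1.42, against 0.14 over all features. There 21.0% of all features were called higher and 24.5% lower. In csf1r-positive barcodes 1 was called higher, the lipid droplet gene plin2 (1.12), and 7 were called lower. The shares over all features were 17.4% higher and 20.5% lower in that set.

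The coactivators PGC-1 alpha and PGC-1 beta, encoded by ppargc1a and ppargc1b, are known to drive mitochondrial genes with PPAR and oestrogen-related receptors. Levels of ppargc1a in mogat2-positive barcodes were 5.43, 90.7 and 206 scaled CPM (lowest, median and highest library), against medians of 31.9 in cubn-positive, 14.0 in best4-positive, 1.62 in lck-positive and 0.32 in csf1r-positive barcodes. The highest lck-positive library was at 10.2 and the highest csf1r-positive library at 6.82. The log2 fold change in mogat2-positive barcodes was 3.58 ± 0.19 (24 of 25 libraries, edgeR adjusted p = 2.30e-36), and in cubn-positive barcodes it was 1.84 ± 0.23 (higher in 9 of 19 libraries than the plain mean of the other sets, edgeR adjusted p = 1.23e-11).

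Its relative was highest in macrophages. In csf1r-positive barcodes ppargc1b had 28.1, 87.0 and 252 scaled CPM (lowest, median and highest library), against medians of 27.1 in mogat2-positive, 37.5 in cubn-positive, 21.2 in best4-positive and 41.4 in lck-positive barcodes. It was called higher in csf1r-positive barcodes (log2 fold change 1.60 ± 0.13, 23 of 24 libraries, edgeR adjusted p = 1.44e-20). In best4-positive barcodes it was called lower (-1.07 ± 0.18, edgeR adjusted p = 2.29e-07), but that call was lost in 5 of 10 other settings and in 12 of 25 fits that left out a library.

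The balance of both copies was tested as a share within each library. Of the UMIs of ppargc1a and ppargc1b together, the a copy made up a median of 71.9% in the 3 epithelial sets (range 25.0% to 87.6%) and 3.06% in the 2 immune sets (range 0% to 11.6%). The mean difference was 65.2 points (SD 13.8), with the epithelial share higher in 25 of 25 libraries. A sign-flip permutation test gave 1e-05, the smallest p that 100000 resamples allow, and 3.58e-05 after adjustment over 161 pairs of a and b copies in the feature list. Shares that differ in this way were common, with 41.0% of those 161 pairs passing an adjusted p under 0.05 and 10 points. The ranges of the epithelial and immune shares did not overlap for this pair.

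Among the retinoid receptors, rxra, the shared partner of many receptors, was highest in mogat2-positive barcodes. Its lowest, median and highest libraries were at 7.24, 43.9 and 120 scaled CPM there. In cubn-positive barcodes they were 0, 6.03 and 29.4, in best4-positive 0, 4.65 and 24.1, in lck-positive 1.33, 16.9 and 48.6, and in csf1r-positive 0, 12.2 and 29.2. The log2 fold change in mogat2-positive barcodes was 2.22 ± 0.16 (23 of 25 libraries, edgeR adjusted p = 8.84e-25). It was called lower in cubn-positive (-1.20 ± 0.24) and best4-positive barcodes (-1.47 ± 0.27). The cubn call was lost in 3 of 10 other settings, with values up to -0.70, and the best4 value turned to 0.13 when barcodes positive for several markers were added (edgeR adjusted p = 0.518).

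The retinoic acid receptor gene rara was not called in any comparison, with medians from 21.9 scaled CPM in lck-positive to 38.0 in cubn-positive barcodes. Its relative rarg was too low for the main test. With a lower count limit (at least 3 UMIs in 10 profiles, 17818 features), rarg was called higher in lck-positive barcodes, at 1.43 ± 0.26 (edgeR adjusted p = 5.67e-07), where 17.6% of features were called higher, and lower in mogat2-positive barcodes, at -1.20 ± 0.29, where 11.2% were called lower. Of 21 names of retinoid uptake and metabolism 8 were found and 7 tested, and 6 were called higher and 0 lower in mogat2-positive barcodes, with a list median of 2.20. The 6 included the retinol-binding protein gene rbp2 (log2 fold change 5.46) and the retinol transporter gene stra6 (4.90). Over all features 19.1% were called higher and 14.8% lower in this set.

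**Figure D2:**
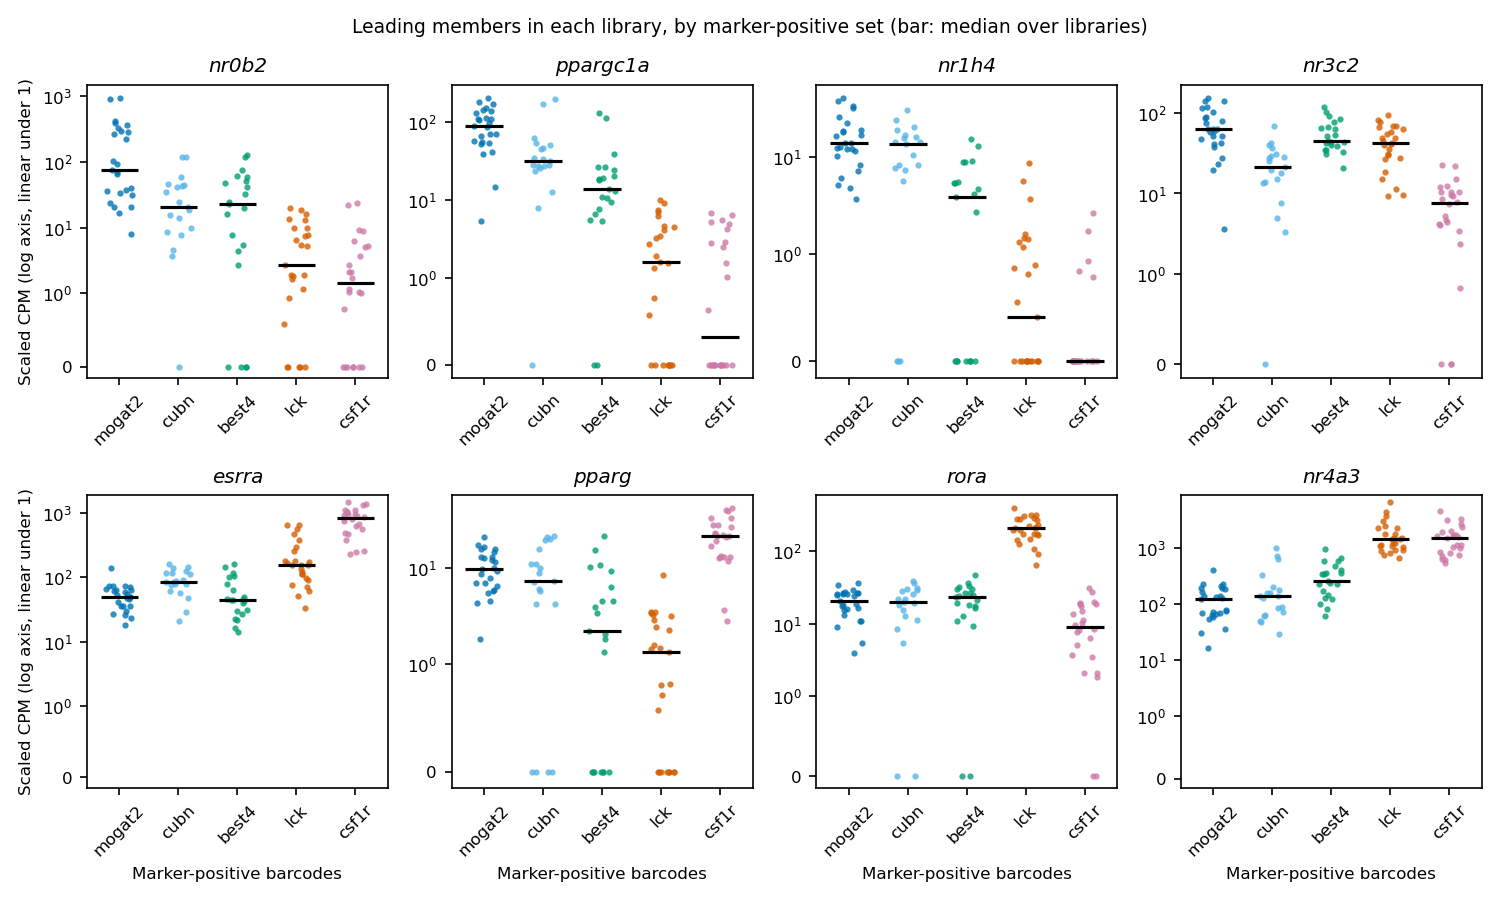
Scaled CPM of 8 members in each library (points) of the 5 marker-positive sets, on an axis that is logarithmic above 1 and linear below it, with the median as a bar. Levels of rora in the 25 lck-positive profiles lie above every other profile, and nr0b2, ppargc1a and nr1h4 have higher medians in the 3 epithelial sets than in the 2 immune sets.

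Of the members with a place in the circadian clock, rora was highest in lymphocytes. It encodes a receptor known to activate the clock gene arntl and to act in innate and helper lymphoid cells of mammals. Its lowest, median and highest libraries were at 64.3, 212 and 392 scaled CPM in lck-positive barcodes. The highest library of any other set was at 47.8, so the groups did not overlap, and the medians there were 20.6 in mogat2-positive, 20.0 in cubn-positive, 23.6 in best4-positive and 8.92 in csf1r-positive barcodes. The log2 fold change was 3.61 ± 0.15 (25 of 25 libraries, edgeR adjusted p = 2.67e-41).

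Its paralogue rorb was found at low counts and mostly in epithelial barcodes. Medians were 4.82 scaled CPM in mogat2-positive and 4.23 in cubn-positive barcodes and 0 in the other sets, and the lck-positive and csf1r-positive barcodes of all libraries held 3 and 4 UMIs, so the size of its fold changes rests on few counts. It was called higher in mogat2-positive (2.58 ± 0.32, 18 of 25 libraries) and cubn-positive barcodes (2.61 ± 0.40, 10 of 19 libraries). As rorb could pass the count limit only through epithelial profiles, these calls are no support beyond the counts above. Of the UMIs of both copies, rora made up a median of 82.6% in epithelial and 100% in immune barcodes. The mean difference was -19.5 points (SD 17.4), the epithelial share was lower in 21 and higher in 0 of 25 libraries, and the adjusted p of the permutation test was 3.58e-05. The smallest p that the resamples allow, 1e-05, was reached here too.

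REV-ERB alpha, encoded by nr1d1, represses arntl in the mammalian clock. In lck-positive barcodes it ran from 1.72 scaled CPM in Julidochromis ornatus to 114 in Eretmodus cyanostictus, with a median of 19.0. In mogat2-positive barcodes it ran from 1.37 in Telmatochromis vittatus to 76.3, again in Eretmodus cyanostictus, with a median of 7.99. It was called higher in lck-positive barcodes (1.13 ± 0.21, 19 of 25 libraries, edgeR adjusted p = 5.20e-07), a call lost in 7 of 25 fits that left out a library and in 6 of 10 other settings. In best4-positive barcodes it was called lower (-1.18 ± 0.29, edgeR adjusted p = 0.000397), a call lost without TMM factors and with every marker-positive barcode, where the value came as near to 0 as -0.36.

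Over the 25 libraries, nr1d1 moved with other clock genes in mogat2-positive barcodes. On the log2(CPM + 1) scale it fell with arntl, the gene it is known to repress (Pearson r = -0.712, permutation p = 8e-05, Spearman rho = -0.635). It rose with tef, a clock output factor (r = 0.701, rho = 0.655), and with bhlhe41, a clock repressor (r = 0.760, rho = 0.708), and it fell with nfil3, which opposes tef (r = -0.574, rho = -0.507). Adjusted over the 14 relations computed, permutation p for r was 0.000513, 0.000513, 0.00014 and 0.0103 in that order, and for rho 0.00373, 0.0035, 0.00168 and 0.0374. With the 2 libraries most distant in nr1d1 left out, r was -0.636, 0.616, 0.666 and -0.470. With hlf, bhlhe40 and csnk1e the relation did not pass the threshold (r = 0.289, 0.373 and 0.160).

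In lck-positive barcodes none of the 7 relations of nr1d1 passed the threshold, with r from -0.359 for csnk1e to 0.174 for bhlhe41. The pooled level of nfil3 there was 0.496 CPM, against 7.57 CPM in mogat2-positive barcodes. With most lck-positive profiles at 0 for nfil3, its relation with nr1d1 could not be read in that set. A test of the difference between the sets was not made. In mogat2-positive profiles neither nr1d1 nor arntl, tef, bhlhe41 or nfil3 passed the threshold against the depth of the profile or the median UMIs per barcode, with adjusted permutation p for r from 0.231 to 0.895. Against the depth of the profile, r was 0.356, -0.223, 0.138, 0.443 and -0.13 in that order. For bhlhe41 the permutation p was 0.0264 before adjustment over 12 relations. The part of depth in the relation of nr1d1 with bhlhe41 was not tested. Libraries share ancestry as well as sampling conditions, and the part of either in the relations of nr1d1 was not tested. The labels give no hour of sampling. Of 20 clock names 7 were found and tested. In lck-positive barcodes 3 of them were called higher and 2 lower, where 21.0% and 24.5% of all features were. In mogat2-positive barcodes the counts were 2 and 2, where 19.1% and 14.8% of all features were.

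**Figure D3:**
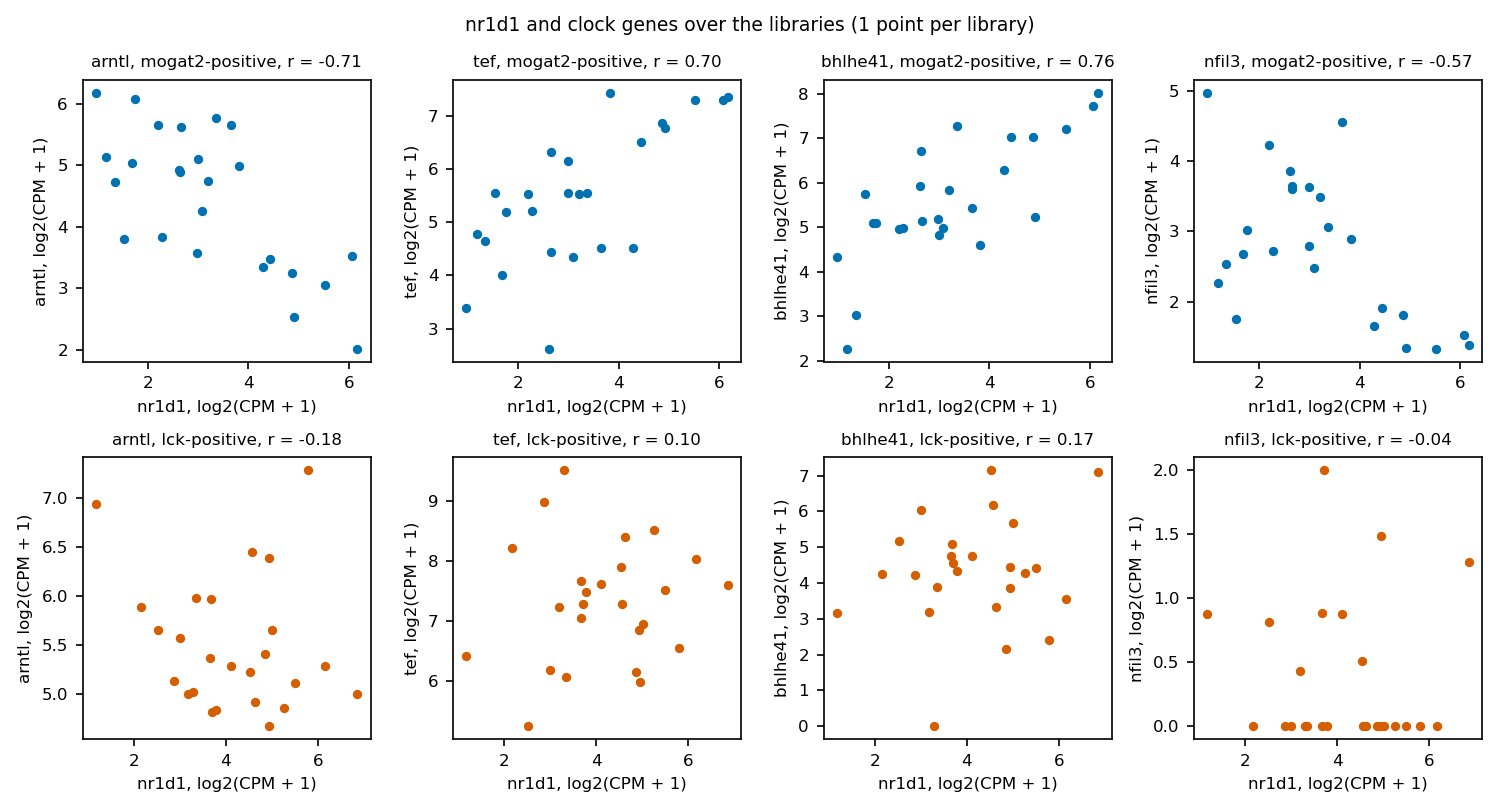
Levels of nr1d1 (horizontal axis) and of arntl, tef, bhlhe41 and nfil3 (vertical axes), as log2(CPM + 1), in mogat2-positive barcodes (upper row) and lck-positive barcodes (lower row), with 1 point per library. In the upper row arntl and nfil3 fall and tef and bhlhe41 rise with nr1d1, and in the lower row no such slope passed the threshold.

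Steroid receptors were led by nr3c2, the mineralocorticoid receptor, known for control of epithelial salt transport and, in fish, for cortisol signalling. It had 3.62, 61.9 and 153 scaled CPM (lowest, median and highest library) in mogat2-positive barcodes and 20.7, 44.5 and 119 in best4-positive barcodes. The medians were 21.2 in cubn-positive, 41.9 in lck-positive and 7.58 in csf1r-positive barcodes, so macrophages were the low group. It was called higher in mogat2-positive (1.44 ± 0.15, 22 of 25 libraries, edgeR adjusted p = 1.61e-15) and best4-positive barcodes (1.08 ± 0.18, 18 of 21 libraries, edgeR adjusted p = 2.55e-07), and it was the only member called higher in the best4 set. The best4 call was lost with no filter and with at least 50 barcodes per profile, where the value was as low as 0.91. In csf1r-positive barcodes it was called lower (-2.60 ± 0.21 (SE), higher in 0 of 24 libraries, edgeR adjusted p = 7.60e-21).

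The glucocorticoid receptor gene nr3c1 was lower and not called in any comparison, with medians of 3.65 to 6.95 scaled CPM over the sets. Of a list of 10 glucocorticoid response genes, 7 were found and tested. In mogat2-positive barcodes 4 were called higher and 0 lower, in cubn-positive 3 and 0, in best4-positive 3 and 0, in lck-positive 1 and 5, and in csf1r-positive 0 and 4. Over all features 19.1%, 14.7%, 10.5%, 21.0% and 17.4% were called higher and 14.8%, 12.3%, 10.6%, 24.5% and 20.5% lower, in that order. The list medians were 1.66, 0.81, 0.75, -2.48 and -1.56 in the same order. The kinase gene sgk1, a known target of both corticosteroid receptors, had log2 fold changes of 2.83, 2.08, 1.25, -3.04 and -3.12 in these sets. The cortisol-inactivating enzyme gene hsd11b2 was at 1.66 in mogat2-positive and 2.01 in cubn-positive barcodes. In lck-positive barcodes the exception was klf9, which was called higher (2.23).

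Sex steroid receptors were scarce. The oestrogen receptor beta gene esr2 held 2134 UMIs in all kept barcodes and was tested only with the lower count limit. It was called higher in mogat2-positive (2.67 ± 0.32, edgeR adjusted p = 2.26e-12) and cubn-positive barcodes (2.15 ± 0.40, edgeR adjusted p = 4.17e-06), where 21.9% and 13.9% of features were called higher. In lck-positive and csf1r-positive barcodes, where 25.6% and 19.6% of features were called lower, it was called lower on 33 and 4 UMIs. Its highest library was Neolamprologus brevis in mogat2-positive barcodes (40.3 scaled CPM) and Triglachromis otostigma in cubn-positive barcodes (67.0). All libraries together held 84 UMIs of esr1, 55 of the androgen receptor gene ar and 31 of the progesterone receptor gene pgr, and differences between the sets were not detectable at this depth.

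Thyroid hormone receptor beta (thrb) had medians of 32.1 scaled CPM in lck-positive barcodes and 16.2 to 17.1 in the other sets. In lck-positive barcodes it was called higher by a narrow margin (1.05 ± 0.14, 22 of 25 libraries, edgeR adjusted p = 6.95e-11). The call was lost in 6 of 10 other settings and in 13 of 25 fits that left out a library, and the log2 fold change stayed above 0 in all of them.

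The oestrogen-related receptors, which bind no known natural hormone and act with PGC-1 on mitochondrial genes, were highest in macrophages. Levels of esrra in csf1r-positive barcodes were 232, 848 and 1503 scaled CPM (lowest, median and highest library). In lck-positive barcodes they were 33.8, 153 and 657, in cubn-positive 20.9, 84.7 and 163, in mogat2-positive 18.1, 49.7 and 139, and in best4-positive 14.0, 44.5 and 163. Every csf1r-positive library lay above every epithelial profile, and csf1r-positive and lck-positive ranges overlapped. The log2 fold change was 3.27 ± 0.14 (24 of 24 libraries, edgeR adjusted p = 1.66e-40), and esrra was called lower in mogat2-positive (-1.56 ± 0.17) and best4-positive barcodes (-1.62 ± 0.19).

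Its relative esrrg was found almost entirely in macrophages. Csf1r-positive barcodes held 498 of its UMIs, at a pooled level of 26.9 CPM (exact 95% Poisson limits 24.6 and 29.3). The other sets held 3 UMIs (mogat2), 1 (cubn), 1 (best4) and 3 (lck), or 0.0191, 0.0679, 0.172 and 0.0827 CPM, with upper limits of 0.0559, 0.379, 0.956 and 0.242 CPM. It was present in 23 of 24 csf1r-positive profiles, from 1.02 scaled CPM in Petrochromis orthognathus to 75.0 in Neolamprologus brichardi, and Haplotaxodon microlepis was at 0, where a count of 0 allows up to the level of 3 UMIs. With the lower count limit it was called higher in csf1r-positive barcodes (edgeR adjusted p = 1.70e-23), where 17.8% of features were. It could reach that limit only through the csf1r-positive profiles, so the call is no support beyond the counts above. No fold is given because the other sets held so few counts. The 2 highest libraries were both of the genus Neolamprologus, with Neolamprologus brevis at 63.7 scaled CPM.

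Among the orphan receptors nr4a3, known in mammals as an immediate-early gene that stimulation switches on within minutes to hours, held 315375 UMIs, more than any other member. Its lowest, median and highest libraries were at 650, 1405 and 6424 scaled CPM in lck-positive barcodes and at 525, 1503 and 4444 in csf1r-positive barcodes. They were 16.4, 123 and 400 in mogat2-positive, 28.7, 136 and 1000 in cubn-positive, and 60.6, 254 and 940 in best4-positive barcodes. Both immune sets lay above every mogat2-positive profile. The log2 fold changes were 2.48 ± 0.16 for lck (25 of 25 libraries, edgeR adjusted p = 6.22e-26) and 2.30 ± 0.16 for csf1r (21 of 24 libraries, edgeR adjusted p = 5.61e-24), and nr4a3 was called lower in mogat2-positive (-2.31 ± 0.21) and cubn-positive barcodes (-1.66 ± 0.23).

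Tissue dissociation is known to switch on immediate-early genes. The summed levels of fosb, fosl2, egr1, ier2 and atf3, a list added after the values of nr4a3 had been seen, had medians of 2793 CPM in mogat2-positive, 3354 in cubn-positive, 3989 in best4-positive, 3407 in lck-positive and 2963 in csf1r-positive barcodes. The genes fos, jun and junb were also looked for but had no matching symbol, so they are not in these sums. The part of dissociation in the level of nr4a3 was not tested. Reads of near-identical copies can be split between features, and how the counting treated them is not given in the sources used here, so nr4a3 and other members with close paralogues carry that uncertainty.

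Other orphan receptors were low. The COUP-TF gene nr2f1 held 837 UMIs, and with the lower count limit it was called higher in best4-positive barcodes (2.64 ± 0.50, edgeR adjusted p = 4.59e-06), where 11% of features were called higher. It was found there at 0, 4.61 and 21.2 scaled CPM (lowest, median and highest library), with 7 of 21 libraries at 0. DAX1-like nr0b1b, an atypical receptor related to SHP, held 133 UMIs in lck-positive barcodes and 4, 0, 0 and 7 UMIs in mogat2-, cubn-, best4- and csf1r-positive barcodes. Of the 7 in csf1r-positive barcodes most came from a single library, Julidochromis ornatus, and no fold is given against sets without a UMI. The genes nr2c1 and nr2c2 were not called in any comparison, nr6a1, nr0b1 and nr2e1 had 125 to 170 UMIs each, and nr4a2 and nr5a1 had 2 and 1.

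The general coactivators were called in no comparison. This held for each of ncoa1, ncoa2, ncoa4, ncoa5 and ncoa6 in all 7 comparisons. The member with most UMIs among them was ncoa4, better known as the receptor that sends ferritin to autophagy, with medians from 50.6 scaled CPM in best4-positive to 112 in mogat2-positive barcodes. For the corepressor gene ncor1 the medians were 56.5 scaled CPM in csf1r-positive and 112 in lck-positive barcodes.

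Partners outside the symbol rule, 12 features tested of which 2 are the PGC-1 genes, gave 3 called higher and 2 lower in lck-positive barcodes. Over all features 21.0% were called higher and 24.5% lower there. The 3 were the acetyltransferase gene crebbp (1.51), the corepressor subunit gene tbl1x (1.56) and the methyltransferase gene prmt1 (1.5). The RNA-processing factor thrap3 was called higher in the same set (1.09 ± 0.10, 25 of 25 libraries, edgeR adjusted p = 1.46e-18), with the call lost in 6 of 10 other settings and in 13 of 25 fits that left out a library.

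Both absorptive sets were compared directly. Cubn-positive against mogat2-positive barcodes gave 0 members called higher and 5 lower, where 6.47% of features were called higher and 9.12% lower. For rxra the mean was 8.22 ± 8.38 scaled CPM (SD, n = 19) in cubn-positive barcodes and 47.5 ± 29.5 (SD, n = 25) in mogat2-positive barcodes (log2 fold change -2.74 ± 0.26, 0 of 19 libraries higher, edgeR adjusted p = 1.62e-16). For nr0b2 the means were 33.2 ± 34.4 and 202 ± 252 in the same order (-2.04 ± 0.33, 3 of 19 libraries higher, edgeR adjusted p = 8.28e-08). The remaining calls were nr3c2 (-1.64 ± 0.23), ppargc1a (-1.39 ± 0.28) and ppara (-1.36 ± 0.27). The ppargc1a call was lost in 3 of 10 other settings (to -0.74) and the ppara call in 1 (-0.73). Neither nr1h4 nor nr5a2 was called here. Without the normalization factors the median of all features was 0.51, against -0.06 with them, 4 members were called higher and 3 lower, and the share of calls that were higher over all features was 81.6%, against 41.5% with them.

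Macrophages and lymphocytes were compared in the same way. Csf1r-positive against lck-positive barcodes gave 3 members called higher and 6 lower, where 17.1% of features were called higher and 18.4% lower. Of those calls over all features 48.3% were higher, against 64.6% without the normalization factors, when 6 members were called higher and 2 lower. Higher were pparg (3.60 ± 0.29, 24 of 24 libraries, edgeR adjusted p = 1.96e-22), esrra (2.14 ± 0.19, 24 of 24 libraries, edgeR adjusted p = 1.64e-17) and ppargc1b (1.11 ± 0.17, 20 of 24 libraries, edgeR adjusted p = 1.57e-08). Lower were rora (-4.32 ± 0.24) and nr3c2 (-2.62 ± 0.23), both in 24 of 24 libraries, and ppara (-1.27 ± 0.23), thrb (-1.14 ± 0.18), ncor1 (-1.09 ± 0.12) and nr1d1 (-1.06 ± 0.26) by smaller margins. Of these smaller differences, nr1d1 lost its call in 7 of 10 other settings and without Haplochromis burtoni, Lepidiolamprologus attenuatus, Perissodus microlepis or Telmatochromis vittatus, with values as near to 0 as -0.79. The thrb call was lost in 4 of 10 settings (to -0.83) and without Lepidiolamprologus attenuatus (-0.998), the ncor1 call in 4 of 10 (to -0.78) and without Telmatochromis vittatus (-0.98), and the ppara call in 2 of 10 (to -0.93). The ppargc1b call was lost in 2 of 10 settings (to 0.91) and without Boulengerochromis microlepis (0.97). For nr4a3 the difference was -0.14 ± 0.22, which did not pass the threshold (edgeR adjusted p = 0.607).

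**Figure D4:**
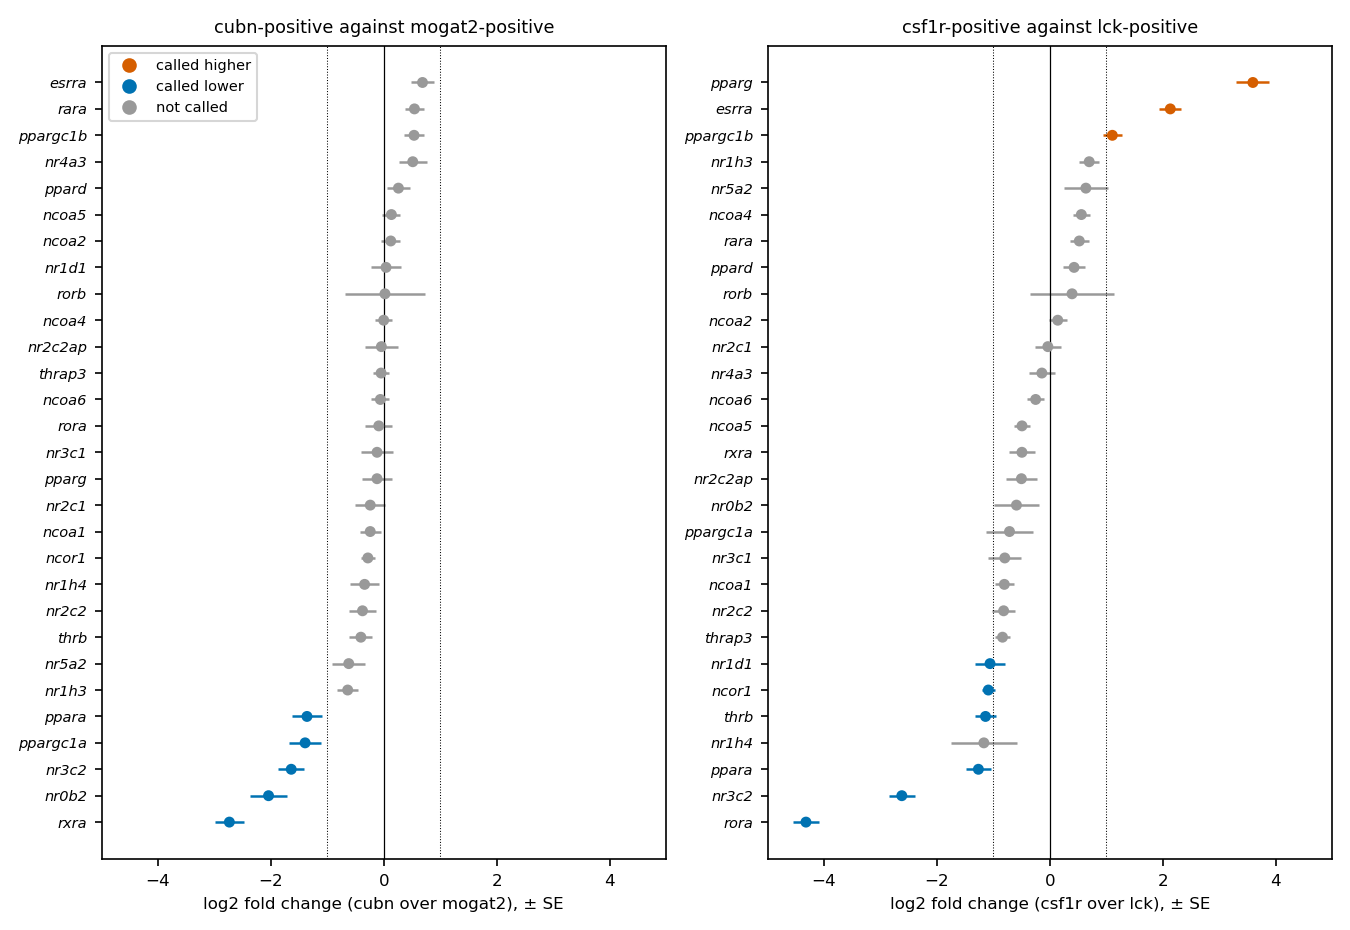
Log2 fold change (points) with its SE (bars) of 29 tested members in cubn-positive over mogat2-positive barcodes (left) and csf1r-positive over lck-positive barcodes (right), and dotted lines at 2-fold. On the left 5 members are called lower and 0 higher, and on the right pparg and esrra lead the 3 called higher and rora the 6 called lower.

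Between species, levels were read over all kept barcodes of a library, where the makeup of the captured cells counts as much as the level in each cell, and fewer cells of a type and less RNA per cell cannot be told apart. Of the 17 members with a mean of at least 20 CPM, nr0b2 varied most. Its SD over libraries was 1.93 on the log2(CPM + 1) scale, more than 94.7% of 4628 features at that level, and it ran from 4.05 CPM in Neolamprologus brichardi (exact 95% Poisson limits 3.07 and 5.24) to 456 CPM in Boulengerochromis microlepis (448 and 463). The median library was at 32.2 CPM. Only Oreochromis niloticus came near the highest, at 426 CPM, and the next, Eretmodus cyanostictus, was at 147 CPM. Within mogat2-positive barcodes the same pair led at 933 and 888 scaled CPM, and the next library, Cyprichromis coloratus, was at 417.

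The next members by spread were ppargc1a (SD 1.15), esrra (1.01), nr4a3 (0.96), rxra (0.90) and ppara (0.87), and the median of the 17 was 0.69, against 0.72 for all features at that level. Levels of ppargc1a ran from 5.41 CPM in Julidochromis ornatus to 115 CPM in Oreochromis niloticus. For esrra they ran from 30.9 CPM in Haplotaxodon microlepis to 373 CPM in Callochromis pleurospilus. For nr4a3 they ran from 220 CPM in Trematocara zebra to 2395 CPM in Lepidiolamprologus elongatus, closely followed by Callochromis pleurospilus at 2383 CPM. In lck-positive barcodes alone those were again the 2 highest libraries for nr4a3, at 6424 and 4362 scaled CPM. Lepidiolamprologus elongatus had the most lck-positive barcodes of all libraries, 1922, and Callochromis pleurospilus had 845, against a median of 335.

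**Figure D5:**
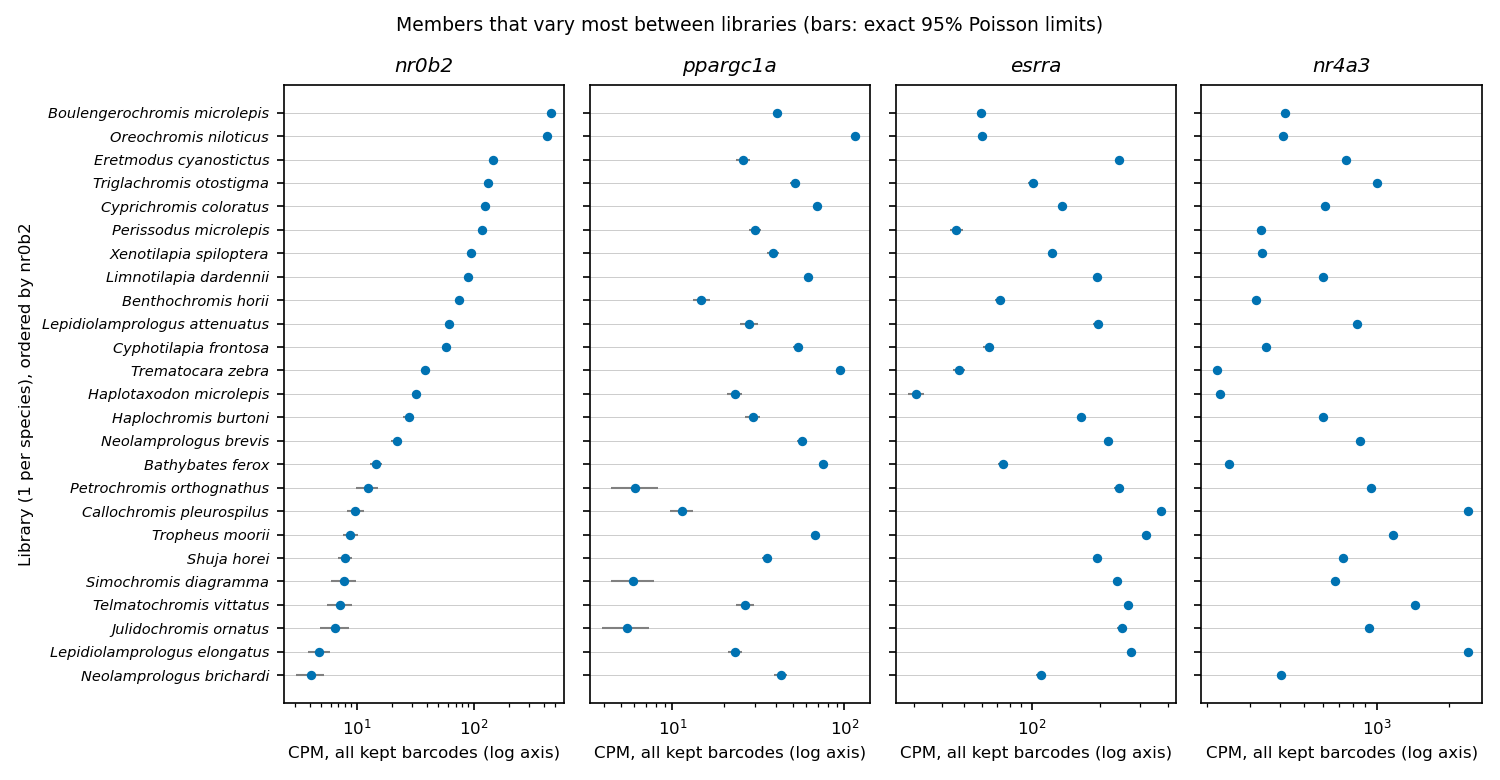
CPM over all kept barcodes of nr0b2, ppargc1a, esrra and nr4a3 in each library, on logarithmic axes, with exact 95% Poisson limits (mostly narrower than the points) and the libraries in the order of nr0b2. Levels of nr0b2 run from 4.05 to 456 CPM, and the order of the libraries is not kept by the other 3 genes.

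Whether a library high in enterocytes was also high in lymphocytes was asked of every feature with a mean of at least 10 CPM in both the mogat2-positive and the lck-positive profiles. Of 19 such members 8 had a Pearson r above 0 at an adjusted p under 0.05, where 48.2% of those features did. The p came from permutation of the 25 libraries and was adjusted over 4236 features. By Spearman rho, nr1d1, ncoa5, nr3c2 and ppara of the 8 did not pass (adjusted permutation p = 0.105, 0.0759, 0.0748 and 0.177). The highest was thrap3 (r = 0.832, rho = 0.742, and r = 0.765 without the 2 farthest libraries, adjusted permutation p = 0.000243), followed by ncor1 (r = 0.638, rho = 0.581, adjusted permutation p = 0.00336). For nr4a3 r was 0.0469 (rho = -0.00692, adjusted permutation p = 0.850), which did not pass the threshold. The median r was 0.395 over the 19 members and 0.44 over all these features. Both profiles of a library share its species and its reference, and their part was not tested.

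Within enterocytes, 6 relations between members and their known partners were tested over the 25 libraries. In mogat2-positive barcodes nr1h4 and nr0b2 had r = 0.196 and rho = 0.363 (adjusted permutation p = 0.608 and 0.149), nr5a2 and nr0b2 had r = 0.159, rxra and nr0b2 r = 0.0622, ppargc1a and esrra r = 0.15, and ppara and rxra r = 0.144 (rho = 0.397, adjusted permutation p = 0.149). None of these 5 passed the threshold, and only nr1d1 with arntl did.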

How the data were processed

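The deposited files are 1 matrix of raw UMI counts per library (features by cell barcodes), with no normalization; the deposited columns of feature symbols and barcodes hold names (unit: other) and no measurement. Per the file headers and the submitters' processing notes, Cell Ranger 5.0.0 made the authors' count matrices; per the labels, libraries used 10x Chromium 3' v3.1 chemistry. The genome build, annotation, cell-calling settings and counting of shared reads are not given in the sources used here. Of the 43 members, 27 were found by symbol in the RefSeq name table of Haplochromis burtoni; 30456 features carry only a LOC identifier, of which 0 were found there, so receptors among them are not named.

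Barcodes with at least 500 UMIs and 250 features were kept. No clustering and no doublet caller was used; the 2626 barcodes positive for 2 or more of the 5 markers were left out of the sets. Counts were summed per library and set (at least 20 barcodes). Features with at least 10 UMIs in at least 20 profiles were fitted with edgeR 4.0.16 (R 4.3.3, TMM factors, glmQLFit, library as block), p-values adjusted over 11256 features. TMM factors had medians of 0.737 for mogat2, 1.21 for cubn, 1.24 for best4, 0.884 for lck and 1.09 for csf1r profiles. "Higher in n of n libraries" compares the set with the plain mean of the other sets of that library. Relations and paralogue shares used permutation tests over libraries (two-sided, 100000 resamples; numpy 2.4.6, scipy 1.17.1), with a pseudocount of 1 CPM. Poisson limits and floors (3 counts) cover counting error only. On simulated counts with known changes for the lck comparison, 100% of 100 features changed 4-fold and 47% of 100 changed 2-fold were called. A 2-fold change lies at the limit of the call itself, and 87% of those 100 passed the adjusted p. The simulated means held no other difference between sets or libraries beyond depth and normalization factor, so these shares need not hold for the real counts.

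Members named with values were the 6 called members with the largest change per direction and comparison, the 10 with the highest level, the tested paralogue pairs, the 6 that spread most over libraries, and a fixed set of gut receptors; members tested only with the lower count limit were named after their values had been seen. The members and lists were chosen with earlier results of these data known. A member and a list gene are counted above but their values are not reported here.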

Additional observations from a re-analysis of the deposited data

How the results depend on the processing

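Of 59 named fold changes, 40 kept their call in every alternative that gave a value. In every left-out fit that gave a value, 49 kept it. For rorb only 10 of 25 such fits and 8 of 10 other settings gave a value, so its calls were not tested in the rest. Over 1997 alternative values, 1859 kept the call, 137 fell short of it and 1 turned round. The last was best4 rxra, at 0.13 with every marker-positive barcode counted (edgeR adjusted p = 0.518). The causes were not tested. Calls that ended in some fits without a library had values on both sides of the 2-fold limit. In lck they ended in 13 of 25 such fits for thrb, 13 for thrap3 and 7 for nr1d1. For ppargc1b in best4 this was so in 12 fits, and for nr0b2 in cubn in 2. In csf1r against lck it was so in 4 fits for nr1d1 and in 1 each for thrb, ncor1 and ppargc1b.

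Counts of members called moved by over 1.5 times in these cases. Without TMM factors, members lower in mogat2 were 4, higher in best4 4 and lower 2, higher in lck 3, higher in cubn against mogat2 4 and lower 3, and higher in csf1r against lck 6 and lower 2. Over all features, the calls without TMM factors were 24.8% lower in mogat2, 14.7% higher and 5.61% lower in best4, 15.4% higher in lck, 19.4% higher and 4.38% lower in cubn against mogat2, and 22.8% higher and 12.5% lower in csf1r against lck. With at least 3 UMIs in 10 profiles, members lower in mogat2 were 4, higher in best4 2, higher in cubn against mogat2 1 and higher in csf1r against lck 6. Of all 17818 features tested with that limit, 11.2%, 11%, 5.07% and 18.1% were called so, in that order. With no filter 4 members were lower in mogat2 and 5 higher in csf1r against lck, where 5.08% and 10.4% of all 33069 features were. Members higher in best4 were 3 with at least 2 UMIs of the marker, 3 with every marker-positive barcode, 2 with at least 1000 UMIs per barcode, 2 without Haplotaxodon microlepis and Trematocara zebra (chosen after seeing the data) and 2 with no replicate block. Over all features, 13.4%, 10.8%, 11.5%, 11.7% and 10.7% were called higher in best4 under these settings, in that order. With every marker-positive barcode counted, 2 members were lower in best4 and 3 higher in lck, where 8.56% and 15.5% of all features were. For the fits that leave out a library, given next, shares over all features are not given here.

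Leaving out each library in turn gave 6 to 8 members higher and 2 lower in mogat2, 3 to 5 higher and 3 lower in cubn, 1 to 2 higher and 4 to 5 lower in best4, 3 to 7 higher and 5 to 6 lower in lck, 4 to 5 higher and 6 to 7 lower in csf1r, 0 higher and 5 lower in cubn against mogat2, and 2 to 5 higher and 4 to 7 lower in csf1r against lck. The 3 higher in cubn came without Shuja horei, and the 5 higher in csf1r against lck without Callochromis pleurospilus; 3 higher in lck came without Cyprichromis coloratus, Lepidiolamprologus attenuatus, Lepidiolamprologus elongatus, Neolamprologus brichardi, Perissodus microlepis or Telmatochromis vittatus.

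Without TMM factors the median log2 fold change of all features moved to -0.48 for mogat2, 0.14 for cubn, 0.09 for best4, -0.13 for lck, 0.12 for csf1r and 0.15 for csf1r against lck. The 5 sets of a library were paired by the block in the model; across species no paired analysis was possible because each species has 1 library. Depth limits members under 10 UMIs per profile, which include esr1, ar and pgr.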

Other observations

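The 64230 kept barcodes with none of the 5 markers held members as well. Their middle library had a median of 1838.5 UMIs per barcode, and cells whose marker was not captured can be among them. In them nr4a3 had a median of 969 CPM (432 to 2713 over the 25 libraries), esrra 165 CPM and rora 67.3 CPM. Of the 837 UMIs of nr2f1, 635 were in these barcodes, with a median of 2.97 CPM and a highest library of 9.92 CPM in Lepidiolamprologus elongatus. Of the 2216 UMIs of rarg, 1573 were there, with 30.6 CPM in Neolamprologus brichardi. By contrast 54 of the 620 UMIs of esrrg were there. These levels are CPM without the normalization factors of the sets, and what these cells are was not examined.

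In lck-positive barcodes the level of nr0b1b was highest in Lepidiolamprologus elongatus, at 16 scaled CPM, and 5 of 25 libraries were at 0. The pump atp2b1, the only gene of a vitamin D and calcium list with a matching symbol, was called higher in csf1r-positive barcodes (log2 fold change 2.93).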
